A study of Schmidtea mediterranea with 24 samples.

Results

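A total of 63 of 36035 gene identifiers of the planarian *Schmidtea mediterranea* kept their level 6 h after amputation and were lower at 48 h, in both populations of sorted cells. They were chosen on the sorted-cell counts. A gene was taken when its highest group mean reached 10 CPM (its counts per 1000000 counts in genes), when its level in mmp-1+ cells lay within 0.8 (log2) of that in mmp-1- cells at every time, and when in both sorts its change from intact animals lay between -0.5 and 0.5 at 6 h and at -0.8 or below at 48 h. Changes are differences of log2(group mean CPM + 1). At most 150 genes were to be kept, and 63 of the 10978 genes that reached 10 CPM met the conditions. All sorted-cell values were used by this choice, so they are given as a description.

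Planarians are flatworms that rebuild missing body parts from dividing stem cells, called neoblasts, which lie in the loose tissue between gut and body wall. A cut is followed within hours by a wound response near the cut, and later by changes through the whole fragment as new tissue forms and old tissue is remodelled. The gene mmp-1 belongs to the matrix metalloproteinases, enzymes that cut proteins of the extracellular matrix.

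The sorted cells were wild type and came from intact animals and from tail fragments at 6 h and at 48 h. A hybridization probe for mmp-1 and flow cytometry separated them into mmp-1+ and mmp-1- cells. Each of the 6 groups had 3 libraries, and each library was made from 1000 fixed cells out of a pool of 100 animals starved for 11 days. Independent of the choice of genes were 4 Slide-seqV2 sections, in which RNA is caught on beads of known position. They were 2 adjacent sections of 1 block with tail fragments at 48 h and 2 of 1 block with tail fragments at 6 h. In each block 8 to 9 fragments lay around 1 intact animal, and these wild-type animals had been fed weekly. In the sorted cells, intact animals are whole bodies and amputated ones are tails, so body region and injury cannot be told apart in the comparison with intact animals, while 48 h and 6 h are both tails.

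Counts in genes ran from 52969393 to 66114382 per sorted library, and the sections held 9587681 to 19692977 UMIs (unique molecular identifiers, each counting 1 captured molecule) on tissue beads. The files pair the identifiers with no gene names, so mmp-1 was not located and neither the sort nor any tissue was checked against marker genes. In intact mmp-1- cells, replicates 2 and 3 stood apart from each other in 9 members, whose values are given with the spread between replicates. None of the 18 pairs of sorted libraries within a group agreed within counting noise. By chi-square per gene, the pairs with intact replicate 2 stood furthest apart in both sorts. They had 69.0 and 106.4 in mmp-1+ cells and 74.9 and 99.5 in mmp-1- cells, while the other pairs ran from 11.7 to 49.9. The section files shared 3 to 5 bead barcodes per pair.

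Summed over the 63 genes, mmp-1+ cells held 2733, 3241 and 2426 CPM in the 3 intact libraries, 2541, 2817 and 2569.6 CPM at 6 h, and 742, 747 and 739 CPM at 48 h. Among mmp-1- cells the sums were 2795, 3945 and 2802 CPM in intact animals, 3348, 3058 and 3304 CPM at 6 h, and 855, 976 and 874 CPM at 48 h. In both sorts the 6 h libraries lay within the range of the intact libraries, and every 48 h library lay below all of them. In these bulk samples, fewer cells of a type and less RNA per cell cannot be told apart.

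**Figure D1:**
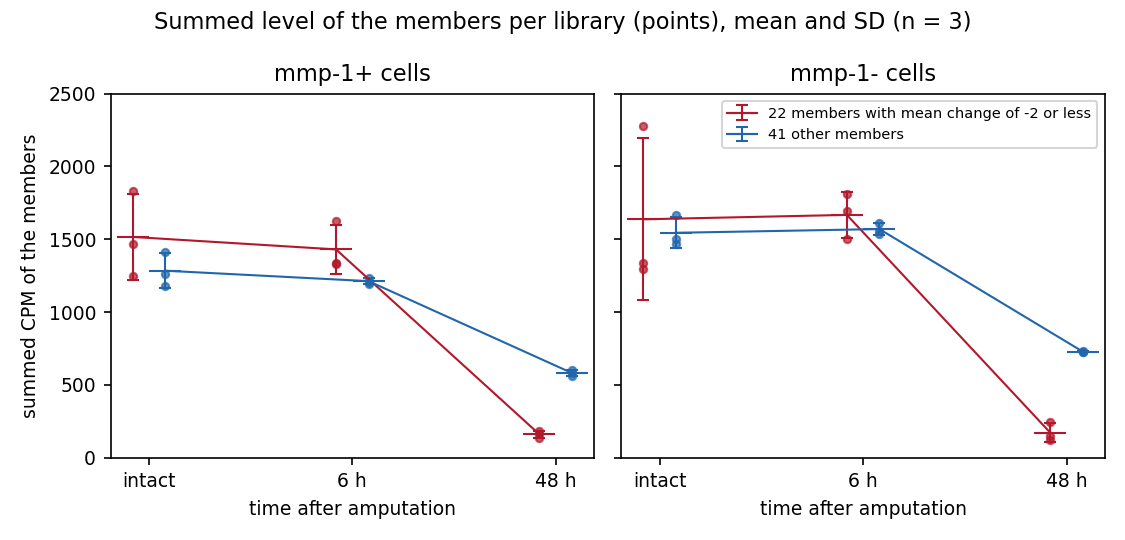
Summed CPM of the members in each sorted library (points), with the mean and SD of the 3 libraries of a group, for the 22 members with a mean 48 h change of -2 or less (red) and the 41 others (blue), in mmp-1+ cells (left) and mmp-1- cells (right) by time after amputation. At 48 h the red means are 161 CPM for mmp-1+ cells (left) and 173 CPM for mmp-1- cells (right), and the blue means 582 and 729 CPM.

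At 48 h the members' median change was -1.35 (mmp-1+ cells) and -1.27 (mmp-1- cells), beside 0.01 and 0.05 over all genes that reached 10 CPM. At 6 h it was -0.17 and -0.02, beside -0.10 and -0.01 over all such genes. The median difference of mmp-1+ minus mmp-1- cells was -0.27 in intact animals, -0.45 at 6 h and -0.34 at 48 h, and over all genes it was -0.25, -0.37 and -0.31. With TMM scaling (trimmed mean of M-values, which aligns libraries on the bulk of their genes) the members' medians were -0.01, -0.08 and -0.06, beside 0.04, -0.01 and 0.00 over all genes. Differences between the sorts are therefore best read against the median of all genes. TMM scaling also moved the members' 6 h median to -0.069 in mmp-1+ cells, where the median of all genes became 0.0054, and to 0.012 in mmp-1- cells.

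The members were parted at a mean 48 h change over both sorts of -2, a 4-fold difference, after the values had been seen. The 22 members of this strong class lay between -3.83 and -2.26, and the 41 of the weaker class between -1.90 and -0.83. The strong class was the more abundant, with a median highest group mean of 70.4 CPM, against 23.8 CPM in the weaker class and 30.8 CPM over all genes that reached 10 CPM. The 1 CPM added before the log shrinks changes of scarce genes more than those of abundant ones. Its part in this difference was not tested. At the edge of the choice, the members just inside the limit of -0.8 had 48 h changes of -0.8002 (mmp-1+) with -1.09 (mmp-1-), and of -0.88 with -0.81. The genes just outside it had -0.7995 with -0.82, and -0.87 with -0.79. In all, 9669 genes met every other condition, and 0.652% of them also met that on the 48 h change.

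**Figure D2:**
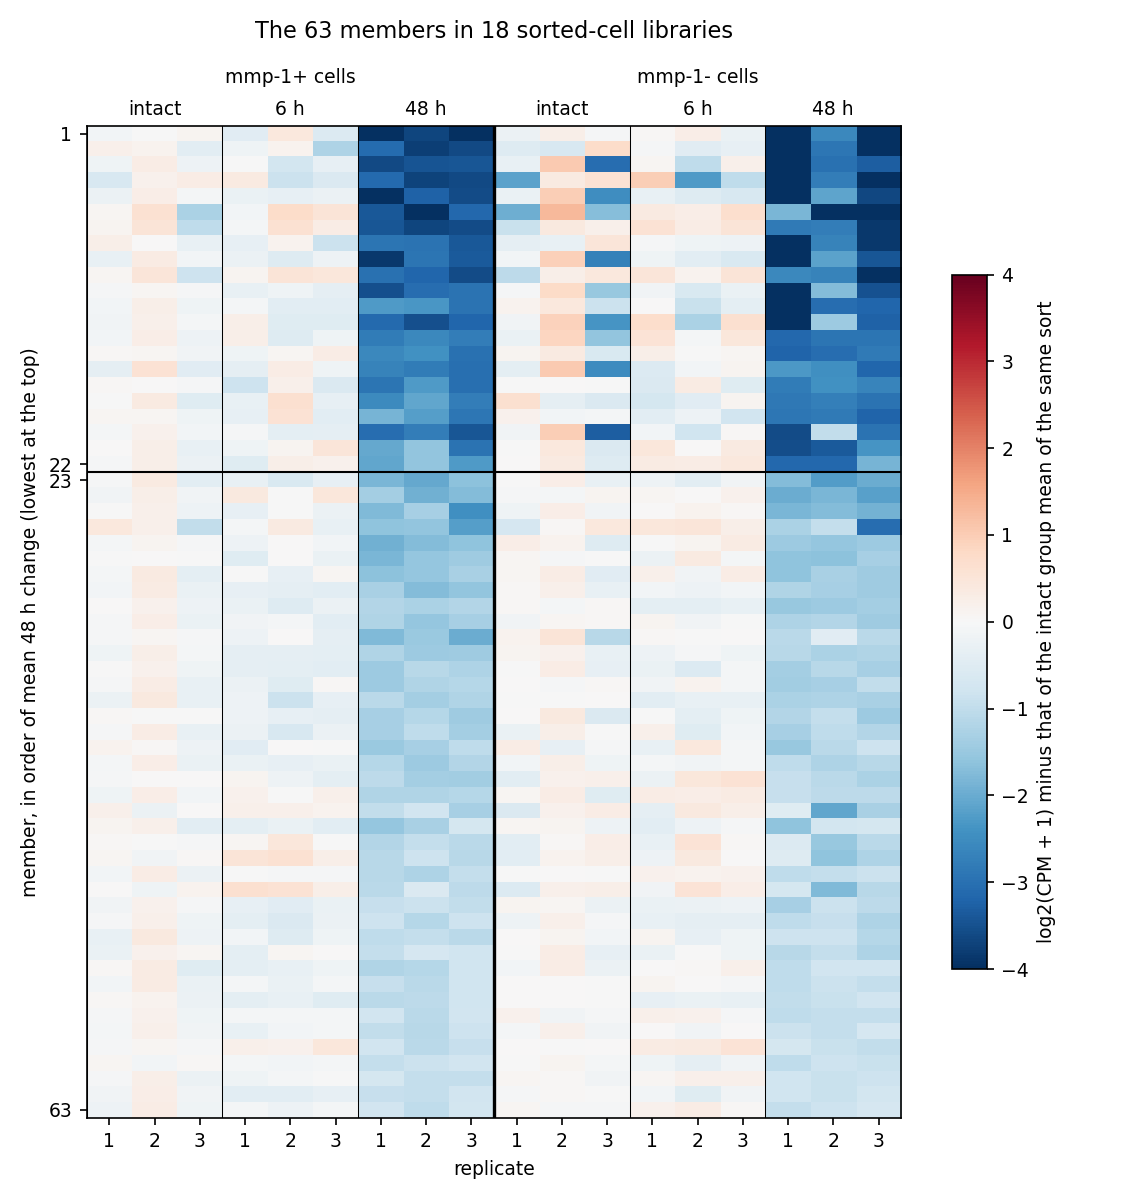
The 63 members (rows, lowest mean 48 h change at the top) in the 18 sorted libraries (columns, grouped by sort and time). Colour gives log2(CPM + 1) minus that of the intact group mean of the same sort, and the black horizontal line parts the 22 members of the strong class from the other 41. The 48 h columns are blue in both sorts, and several upper rows are red in intact mmp-1- replicate 2 and blue in replicate 3.

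SMED30026916 had the lowest mean change, -3.83. Among mmp-1+ cells it had 96.5, 103 and 113 CPM in intact animals, 76.3, 140.1 and 71.8 CPM at 6 h, and 3.28, 7.30 and 4.35 CPM at 48 h. Among mmp-1- cells it had 97.1, 135 and 110.4 CPM in intact animals, 118, 137 and 94 CPM at 6 h, and 2.76, 18.3 and 5.99 CPM at 48 h. In both sorts the 48 h values lay below all others, while the 6 h and intact values overlapped.

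SMED30021380 followed with a mean change of -3.78. It had 138, 132 and 89.03 CPM in intact mmp-1+ cells, 105, 133 and 49.7 CPM at 6 h, and 13.4, 7.82 and 8.85 CPM at 48 h. Among mmp-1- cells it had 133, 121 and 318 CPM in intact animals, 185, 139 and 153 CPM at 6 h, and 1.82, 25.1 and 3.33 CPM at 48 h. Replicate 3 of intact mmp-1- cells was the highest library for this gene, and replicate 2 of 48 h mmp-1- cells the highest of the 48 h libraries. The next members in the order had mean changes of -3.55 and -3.50.

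The most abundant member over the 6 groups, SMED30018823, belonged to the weaker class. Among mmp-1+ cells it averaged 214 ± 14.5 CPM in intact animals, 202 ± 2.45 CPM at 6 h and 118 ± 7.43 CPM at 48 h (SD, n = 3 each). Among mmp-1- cells it averaged 184 ± 12.4 CPM in intact animals, 158 ± 11.8 CPM at 6 h and 97.4 ± 5.65 CPM at 48 h (SD, n = 3 each). Its replicates were close together, and its 48 h libraries were separate from all earlier ones in both sorts.

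The second most abundant, SMED30009453, was of the strong class. It averaged 181 ± 85.9 CPM in intact mmp-1+ cells, 224 ± 50.8 CPM at 6 h and 14.5 ± 1.36 CPM at 48 h (SD, n = 3 each). Among mmp-1- cells it averaged 202 ± 82.96 CPM in intact animals, 280.2 ± 25.9 CPM at 6 h and 23.3 ± 9.01 CPM at 48 h (SD, n = 3 each). Its intact libraries spread widely, from 88.1 to 258 CPM in mmp-1+ cells, and still did not overlap with the 48 h libraries. The next members by abundance averaged 118 and 117 CPM over the 6 groups, with mean 48 h changes of -0.90 and -0.89.

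Each comparison was fitted with edgeR's quasi-likelihood test over 31435 genes, and a gene with an adjusted p (Benjamini-Hochberg) under 0.05 was called. Between 48 h and intact animals all 63 members were called lower in mmp-1+ cells, where 10.6% of all genes were called lower, and all 63 in mmp-1- cells, where 9.85% were. Between 48 h and 6 h, 63 members were called lower in mmp-1+ cells, where 5.07% of all genes were, and 62 in mmp-1- cells, where 5.18% were. Between 6 h and intact animals 2 members were called for mmp-1+ cells and 2 for mmp-1- cells, beside 6.52% and 9.56% of all genes in either direction. Every 48 h library was below every intact library for 63 members in mmp-1+ cells (19.8% of genes that reached 10 CPM) and for 54 in mmp-1- cells (17.1%). Every 48 h library was below every 6 h library for all 63 in mmp-1+ cells (11.1% of such genes) and in mmp-1- cells (15.7%). All these contrasts entered the choice of the members, so nothing is read from the counts.

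The member not called between 48 h and 6 h in mmp-1- cells was SMED30019541, singled out after its values were seen. There it had 13.7, 31.4 and 0.665 CPM in intact animals, 13.9, 8.38 and 15.8 CPM at 6 h and 0.360, 7.14 and 1.09 CPM at 48 h. Its groups did not overlap between 48 h and 6 h, but the libraries of a group differed several fold.

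The members called at 6 h were also looked up after the values had been seen. SMED30032199 was higher at 6 h in both sorts, with a log2 fold change of 0.40 (SE 0.10) in mmp-1+ cells and 0.46 (SE 0.10) in mmp-1- cells. Among mmp-1+ cells it had 99.2, 108 and 98.3 CPM in intact animals, 118, 114 and 141 CPM at 6 h and 59.1, 47.7 and 53.3 CPM at 48 h. SMED30010540 was lower at 6 h in mmp-1+ cells, with a log2 fold change of -0.31 (SE 0.09), and SMED30026519 in mmp-1- cells, with -0.36 (SE 0.10). A 6 h group mean above the intact one was found for 15 of 63 members among mmp-1+ cells, beside 28.3% of all genes that reached 10 CPM, and for 30 among mmp-1- cells, beside 47.6%.

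The size of the 48 h change was compared between the sorts with an interaction term. No member was called by edgeR, DESeq2 or limma, beside 0.175% of all genes called by edgeR, and 4 members had an unadjusted p under 0.05 in edgeR (4.21% of all genes did). The difference of the log2 change, mmp-1+ minus mmp-1-, ran from -1.38 to 1.36 over the members with a median of -0.06, and its SE ran from 0.13 to 1.22 with a median of 0.30. The limits on both sorts narrowed the range of these differences by construction. With SEs of up to 1.22, a sizeable difference could also go uncalled, so equal change in the sorts is not read from this.

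The choice was repeated on 2 of the 3 replicate numbers at a time, and the 48 h change was then read in the libraries left out. With replicate 1 left out, 49 genes were chosen (41 of them among the 63). Their median change was -1.28 in the libraries used and -1.19 in those left out, where 49 of 49 were below 0 in both sorts. With replicate 2 left out, 28 were chosen (26 among the 63), with medians of -1.18 in the libraries used and -1.39 in those left out, and 28 of 28 below 0 in both sorts. With replicate 3 left out, 52 were chosen (36 among the 63), with medians of -1.05 and -0.85, and 50 of 52 below 0 in both sorts. Of all genes that reached 10 CPM, 33%, 44.3% and 22% were below 0 in both sorts in the same 3 rounds. The limit of -0.8 in both sorts was met again by 32 of 49, 25 of 28 and 26 of 52 genes, while 2.46%, 3.27% and 1.71% of all genes that reached 10 CPM met it. The limits at 6 h and at 48 h were both met again by 23 of 49, 13 of 28 and 14 of 52 genes, beside 0.673%, 0.563% and 0.345% of all genes. For the genes chosen in a round, the median drop at 48 h was thus also present in the libraries left out. In 2 of 3 rounds it was smaller there than in the libraries used. Most genes of each round did not meet the limits at both times again. The lists of the rounds differ from the 63 members, which were chosen on all libraries. The rule itself was made with earlier results of these data known, so the libraries left out were not fully apart from it.

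In intact animals and at 48 h, replicates of the strong class spread more widely in mmp-1- than in mmp-1+ cells, while at 6 h they did so in mmp-1+ cells. The median coefficient of variation of the strong members was 55.1% in intact and 69.2% in 48 h mmp-1- cells, and that of the weaker members 15.3% and 10.98%. Among mmp-1+ cells it was 18.5% in intact animals and 29.2% at 48 h for the strong members, and 16.02% and 12.9% for the weaker ones. At 6 h the medians of the strong members were 25.5% for mmp-1+ and 17.5% for mmp-1- cells, and those of the weaker members 11.4% and 9.39%. Over all genes that reached 10 CPM the medians in the 6 groups ran from 7.23% to 10.8%.

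For 9 members, all of the strong class, the level in intact mmp-1- replicate 2 was at least 4-fold that in replicate 3 (log2 ratios from 2.27 to 4.28), which held for 0.446% of genes that reached 10 CPM. Summed over those 9 genes, the mmp-1+ libraries had 553, 792 and 521 CPM in intact animals, 585, 531 and 548 CPM at 6 h, and 50.3, 56.4 and 56.7 CPM at 48 h. The mmp-1- libraries had 416, 1076 and 90.3 CPM in intact animals, 544, 369 and 571 CPM at 6 h, and 33.9, 97.1 and 41.8 CPM at 48 h. For these genes intact mmp-1- replicate 3 came near the 48 h libraries, and no intact mmp-1+ library did. Without intact mmp-1- replicate 2, 45 genes met the rule (43 of them among the 63), and the members' median 48 h change in mmp-1- cells was -1.24. Without intact mmp-1- replicate 3, 62 met it (51 among the 63), and the median was -1.40. Leaving out intact mmp-1+ replicate 2 gave 53 genes (51 among the 63).

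The sections gave a measurement of 48 h against 6 h that the choice had not used. All 63 members were found in them, and 55 had at least 200 UMIs over the 4 sections, the minimum for a value, of which 18 were of the strong class and 37 of the weaker one. Each time is 1 block of animals, so no test was made, and intervals cover counting error alone. Section values take in all tissue beads, also those of the intact animal in the block. The log2 ratio of 48 h over 6 h, from the mean CPM of the 2 sections of a time plus 1, had a median of -1.02 over the 55 members and of 0.28 over the 10888 genes with at least 200 UMIs. It was below 0 for 47 members (85.5%) and for 28.6% of all such genes. Both 48 h sections were at least 2-fold below both 6 h sections for 24 of 55 members, beside 1.18% of all genes, and at least 2-fold above them for 1 member, beside 3.83%. Both were below by any amount for 41 members, beside 14.0% of all genes, and both were above for 5 members, beside 52.4%. The median was -1.52 for the strong class and -0.84 for the weaker one. Both 48 h sections were at least 2-fold below both 6 h sections for 11 of 18 strong and 13 of 37 weaker members. By these 2 measures the classes kept their order. Below 0 were 83.3% of the strong and 86.5% of the weaker members. The strong class summed to 262 and 396 CPM in the 48 h sections, against 573 and 738 CPM in the 6 h sections. The weaker class summed to 1066 and 1130 CPM, against 2687 and 2485 CPM. In the means of these sums the weaker class fell by the larger factor, so the order of the classes differed between measures.

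**Figure D3:**
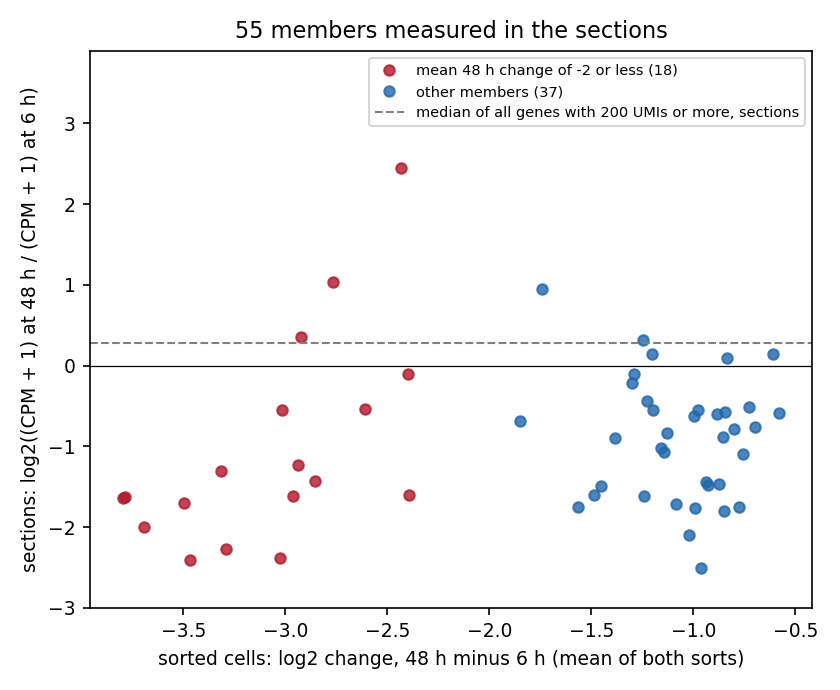
Log2 change of 48 h minus 6 h in sorted cells, averaged over both sorts (x axis), and log2 ratio of 48 h over 6 h in the sections (y axis) for the 55 members with at least 200 UMIs, with the strong class in red and the weaker one in blue. Of the points, 47 lie below 0 on the y axis, and the highest is SMED30023017 at 2.45. The dashed line is the median of all measured genes, 0.28.

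The lowest ratio was that of SMED30010528 of the weaker class, -2.51. It had 63.8 CPM (60.3 to 67.5) and 72.7 CPM (68.8 to 76.8) in the 48 h sections, against 341 CPM (329.9 to 353) and 447 CPM (435 to 459) in the 6 h sections (95% Poisson intervals). Both 48 h values lay far below both 6 h values. In sorted mmp-1+ cells the same gene had 11.2, 14.1 and 10.9 CPM at 48 h against 24.8, 18.6 and 25.1 CPM at 6 h. The second lowest was SMED30009111 of the strong class at -2.41, with 3.55 and 4.78 CPM in the 48 h sections against 31.2 and 21.7 CPM in the 6 h sections. The third lowest ratio was -2.38.

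SMED30023017, of the strong class, was higher at 48 h in the sections. It had 70.99 CPM (67.3 to 74.8) and 157 CPM (151 to 162) in the 48 h sections, against 20.3 CPM (17.6 to 23.4) and 19.6 CPM (17.2 to 22.3) in the 6 h sections (95% Poisson intervals), a log2 ratio of 2.45. In sorted cells it was lower at 48 h, with 20.4, 29.1 and 17.5 CPM at 48 h against 62.7, 104 and 99.04 CPM at 6 h for mmp-1+ cells, and 11.6, 11.5 and 29.8 CPM against 138, 135 and 146 CPM for mmp-1- cells. The directions in sorted cells and sections were opposite for this gene. SMED30032042 had the second highest ratio, 1.03, with 13.5 and 20.6 CPM in the 48 h sections against 7.72 and 7.86 CPM in the 6 h sections, and the third highest was 0.95.

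Beads were joined into connected pieces of tissue, 12 in each 48 h section and 6 and 10 in the 6 h sections. SMED30023017 reached 792 CPM in its highest piece of the first 48 h section and 1599.7 CPM in that of the second, and its lowest pieces there had 2.32 and 0 CPM. In the 6 h sections its highest pieces had 108 and 193 CPM. Its level thus differed widely between pieces of 1 section. The labels do not say which part of a body each piece came from, and the part of this in the ratio was not tested.

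Pieces differed more in the strong members than over all genes with at least 1000 UMIs. Among members with at least 1000 UMIs, the highest piece of a section was a median of 4.52 times the section's level for 5 strong members (range 3.74 to 9.13) and of 1.78 times for 23 weaker members (1.20 to 5.54), beside 1.42 times over 5424 genes with as many UMIs. The summed strong members ran from 28.9 to 1519 CPM over the pieces of the first 48 h section and from 16.8 to 2228 CPM over those of the second. In the 6 h sections they ran from 202 to 1223 CPM and from 28.6 to 1762 CPM. The summed weaker members ran from 673 to 1813 CPM and from 789 to 1847 CPM in the 48 h sections, and from 2348 to 2899 CPM and from 2020.5 to 2817 CPM in the 6 h sections. For the weaker class every piece of a 48 h section was below every piece of a 6 h section, while the strong class overlapped between the times. The intact animal of a block may be among its pieces. If so, for the weaker class its pieces in the 48 h block were also below every piece of the 6 h block. Time and block cannot be told apart.

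Per the labels the fragments lay around the intact animal, so the piece whose centre lay nearest the mean of all piece centres was called central and compared with the outer pieces. The beads themselves carry no such label, and whether a piece is 1 whole animal is not given. In the first 48 h section the central piece was the smallest, with 243 beads against 2151 in the largest. The outer pieces of the first 48 h section had a median of 931 CPM (673 to 1622 CPM) of the summed weaker members, against 1813 CPM in the central piece. Those of the second had a median of 1062 CPM (789 to 1320.1 CPM), against 1847 CPM in the central piece, which was the highest of 12 in both sections. The outer pieces of the first 6 h section had a median of 2629 CPM (2348 to 2899 CPM), against 2475 CPM in the central piece. Those of the second had a median of 2495 CPM (2020.5 to 2817 CPM), against 2361 CPM. So defined, the central piece stood above the outer ones at 48 h and among them at 6 h for the weaker class. For the strong class it was above the outer median at both times. At 6 h it had 1223 against 534 CPM and 1521 against 540 CPM, and at 48 h 1519 against 188 CPM and 727 against 74.7 CPM. The piece nearest the midpoint of the bead array was another one in both 48 h sections and in the first 6 h section. For the weaker members it had 1622 CPM in the first 48 h section, the second highest of its 12 pieces. In the second it had 1057 CPM, among the others, and in the first 6 h section 2804 CPM. For the strong members it had 127 and 2228 CPM in the 48 h sections, and 440 CPM in the first 6 h section.

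**Figure D4:**
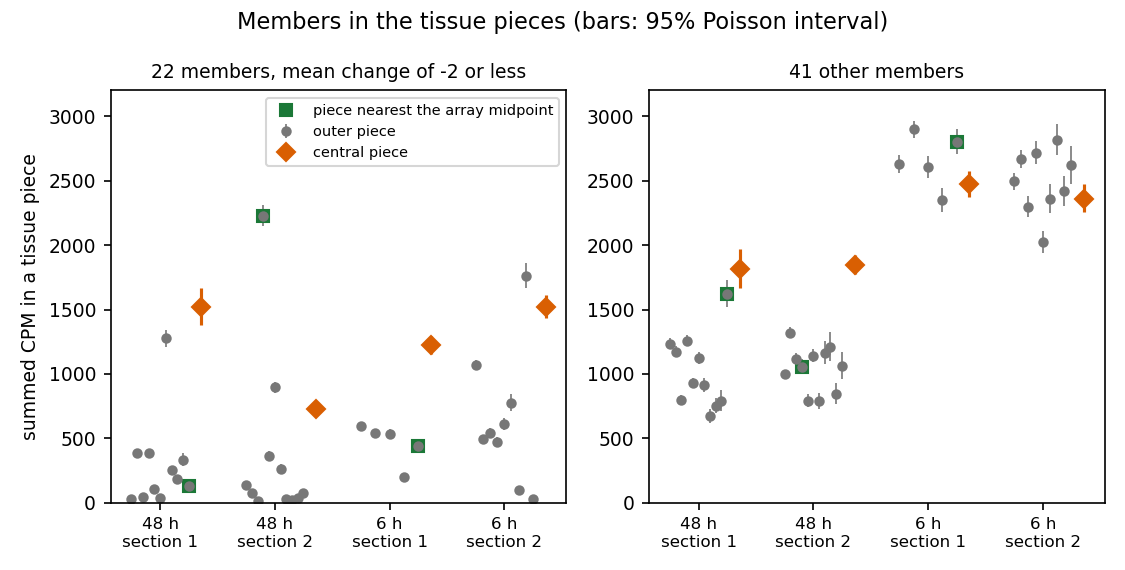
Summed CPM of the 22 strong members (left) and the 41 weaker members (right) in each connected piece of tissue, by section, with 95% Poisson intervals. Orange diamonds mark the central piece, and green squares the piece nearest the midpoint of the bead array where that is another one. On the right the diamond is highest in both 48 h sections (1813 and 1847 CPM) and lies among the other pieces in the 6 h sections.

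Gene by gene, the log2 ratio of outer pieces over the central piece had a median of -0.995 over the 55 members in the 48 h sections (mean of both sections for each gene), beside -0.03 over all genes. This rests on which piece is central: with the piece nearest the midpoint of the bead array the median was 0.12. In the 6 h sections the median was -0.12, beside 0.05 over all genes. By class, with the first central piece, it was -1.64 (strong) and -0.50 (weaker) at 48 h, and -1.30 and 0.07 at 6 h. In both 48 h sections 26 of 55 members were at least 1.5-fold lower in the outer pieces, beside 10.3% of all genes, and 3 were at least 1.5-fold higher, beside 7.17%. In both 6 h sections 14 were lower, beside 4.92% of all genes, and 5 higher, beside 6.97%.

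The lowest of these ratios at 48 h was that of SMED30033881 (-3.83), with 4.50 and 3.59 CPM in the outer pieces against 120.2 and 40.97 CPM in the central piece. SMED30009453 was next (-3.42), with 22.3 and 26.1 CPM in the outer pieces against 437 and 163 CPM in the central piece. In the 6 h sections SMED30009453 had 124 and 139 CPM in the outer pieces against 146 and 137 CPM in the central piece. Both genes were lower in the outer pieces of each 48 h section, and with the piece nearest the midpoint of the bead array as the central one both turned, to 0.72 for SMED30033881 and 0.69 for SMED30009453. Their mean log2 ratios at 6 h were 0.01 and -0.11.

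The rim, the third of tissue beads nearest to an edge, was compared with the interior. The median log2 ratio of rim over interior was -0.36 over the 55 members in the 48 h sections, beside -0.01 over all genes, and -0.07 in the 6 h sections, beside 0.07. At least 1.5-fold above the interior in all 4 sections were 3 members, beside 4.55% of all genes, and at least 1.5-fold below it was 1 member, beside 0.119%. By any amount, 16 of 55 members were lower in the rim in all 4 sections, beside 14.8% of all genes, and 8 were higher, beside 23.0%.

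SMED30032199 had the highest rim ratio (mean log2 1.71), with 8.69 and 15.4 CPM in the rim against 0.893 and 2.54 CPM in the interior at 48 h, and 7.26 and 5.86 CPM against 2.50 and 2.35 CPM at 6 h. SMED30028503 was next (1.45), with 13.4 and 24.9 CPM in the rim against 4.02 and 7.02 CPM in the interior at 48 h, and 14.1 and 17.6 CPM against 4.41 and 7.66 CPM at 6 h. Both genes were higher in the rim of each of the 4 sections.

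The lowest mean rim ratios were those of SMED30023017 (-1.41) and SMED30034819 (-1.39). SMED30023017 had 16.05 and 13.8 CPM in the rim against 95.7 and 222 CPM in the interior at 48 h, and 17.1 and 30.9 CPM against 21 and 14.2 CPM at 6 h. SMED30034819 had 2.01 and 0.358 CPM in the rim against 13.5 and 14.97 CPM in the interior at 48 h, and 6.41 and 17.3 CPM against 7.05 and 12.8 CPM at 6 h. Both genes were lower in the rim of both 48 h sections and of the first 6 h section, and higher in that of the second.

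Members were also grouped by how their levels went together over the 40 pieces, centred within each section. This was done after the data had been seen and is a description: pieces of 1 section share a library. Of 47 members with at least 300 UMIs, 42 fell into 7 sets of 3 or more (average linkage, limit at a Pearson correlation of 0.5). The largest set had 11 members, 10 of them of the strong class, with pairwise correlations from 0.40 to 0.94 (median 0.67). It held 6 of the 9 members with the 4-fold gap between intact mmp-1- replicates 2 and 3, and the other 3 had too few UMIs to be placed. Its members summed to 163 and 201 CPM in the 48 h sections, against 512 and 656 CPM in the 6 h sections, and 8 of 11 were at least 2-fold lower in both 48 h sections than in both 6 h sections.

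A set of 5 members of the weaker class had correlations from 0.54 to 0.90 (median 0.79). Its members summed to 291 and 253 CPM in the 48 h sections, against 981 and 654 CPM in the 6 h sections, and all 5 were at least 2-fold lower in both 48 h sections. All 5 were lower in the rim than in the interior in each of the 4 sections, with mean log2 ratios from -0.88 to -0.71. In sorted cells their mean 48 h changes lay between -1.02 and -0.83, at the weak end of the members.

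A set of 4 held SMED30023017 and SMED30032042, with correlations from 0.49 to 0.94 (median 0.74). Its members summed to 101 and 200.1 CPM in the 48 h sections, against 42.9 and 52.9 CPM in the 6 h sections, and its median section ratio of 0.56 was above 0, unlike that of the other 6 sets. The log2 ratio of outer pieces over the central piece had a median of 2.23 at 48 h and of -3.72 at 6 h for these 4 genes. These values rest on which piece is central, and with the piece nearest the midpoint of the bead array the medians were -1.13 at 48 h and -2.27 at 6 h, so the direction at 48 h turned. The remaining 4 sets had 7, 7, 4 and 4 members, all of the weaker class, with median section ratios of -1.02, -0.79, -0.84 and -0.49.

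**Figure D5:**
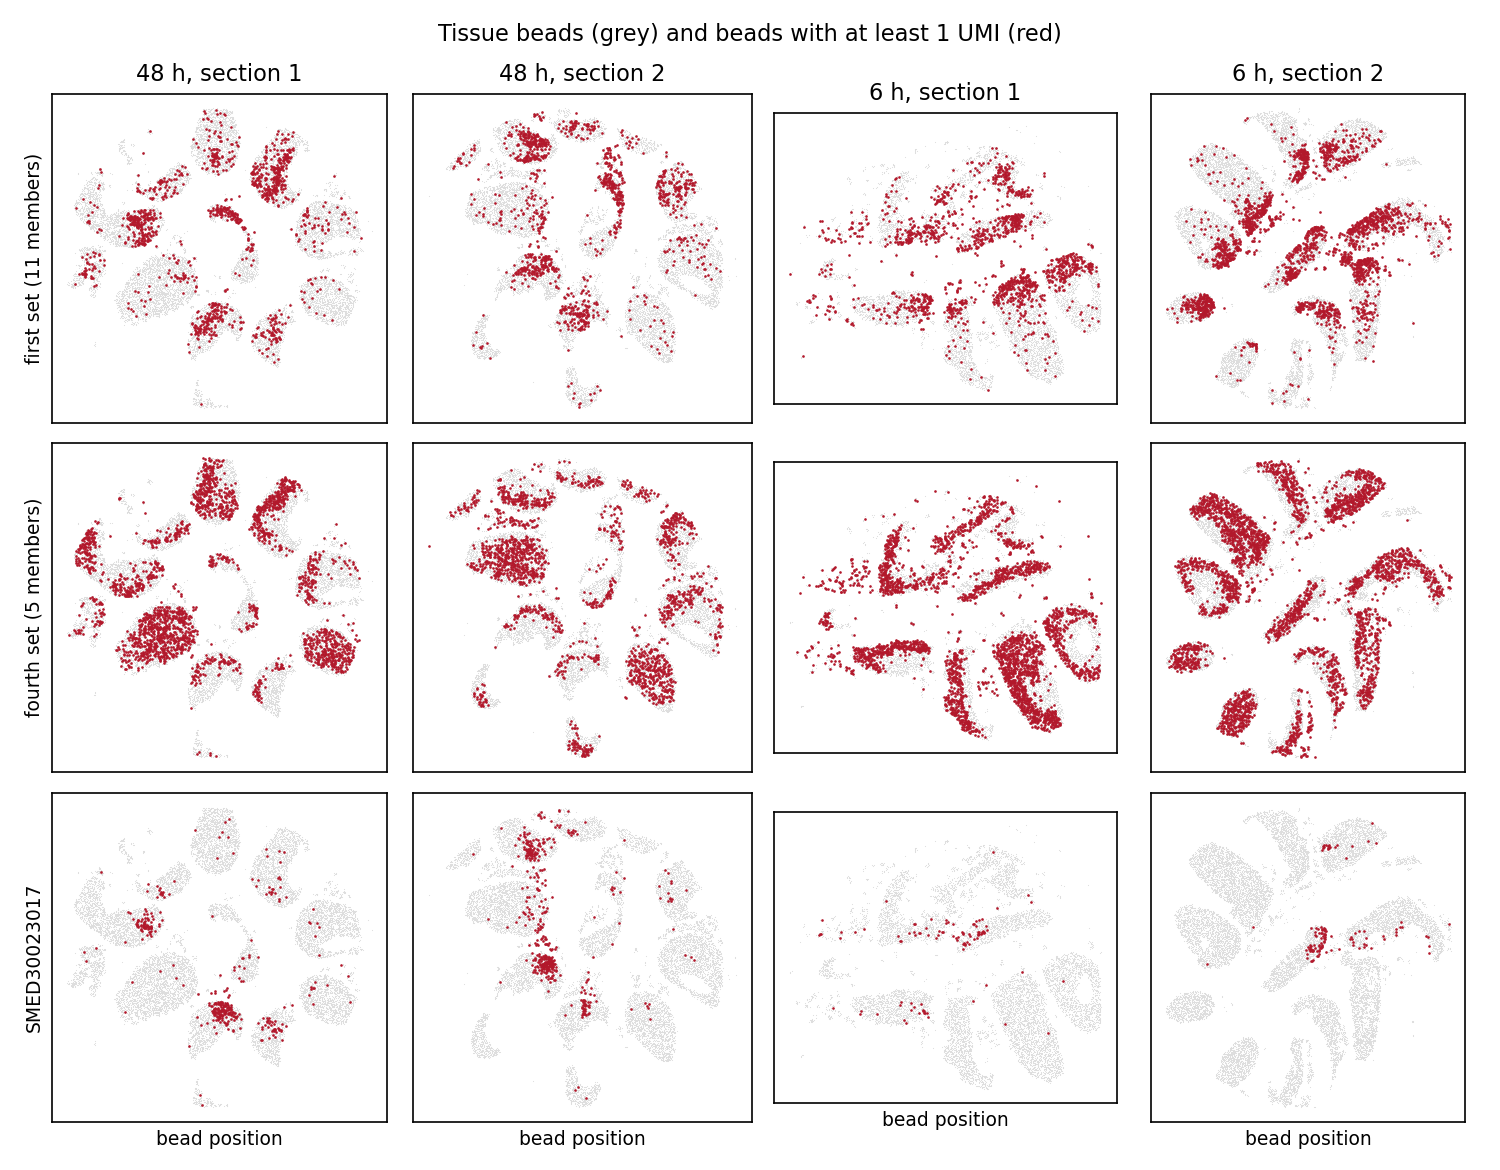
Tissue beads of the 4 sections (grey) with beads that held at least 1 UMI (red) of the set of 11 members (top row), of the set of 5 members (middle row) and of SMED30023017 (bottom row), drawn to scale in bead positions whose unit is not given. Red beads of the set of 5 run through most pieces at both times, those of the set of 11 gather in parts of some pieces, and SMED30023017 gathers in few pieces at 48 h.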

How the data were processed

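Sorted-cell libraries were made with SMART-Seq v4 (10 cDNA cycles) and Nextera XT (12 library cycles), without strand and without molecular identifiers, per the labels' protocols. The authors deposited raw read counts per gene identifier, and the submitters' processing notes list STAR 2.7.3a and RSEM with no role given. For the sections the authors deposited UMI counts per gene and bead with bead positions, and the notes list bcl2fastq 2.20. The genome build was not given in the sources used here. Between 20.4% and 22.2% of sorted reads were in lines for reads without a gene and stayed out of all totals.

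The members and lists were chosen with earlier results of these data known. CPM were taken by column total with a pseudocount of 1 CPM. All genes were fitted with edgeR 4.0.16 (TMM scaling, filterByExpr, 6 groups in 1 quasi-likelihood fit, Benjamini-Hochberg adjustment, R 4.3.3), and DESeq2 1.42.0 and limma 3.58.1 served as alternatives. The scripts were tested on simulated data. The replicates were biological per the labels. Tissue beads were those in dense neighbourhoods, and connected pieces had at least 200 beads.

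Named were members with the lowest 48 h change, the highest CPM, and the extreme section, rim and outer over central ratios. Because identifiers carry no names, at most 2 higher and 2 lower were named for a comparison and others given by value. The 2 single-cell samples were not analysed here. Read counts and UMI counts give intervals that cover counting error only.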

Additional observations from a re-analysis of the deposited data

Results flagged for a closer look

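For 5 members every 48 h sorted library lay below every 6 h library in both sorts, while both 48 h sections lay above both 6 h sections. The difference between sorted cells and sections was not tested, since each time is 1 block. The section log2 ratios of 48 h over 6 h were 2.45 for SMED30023017 and 1.03 for SMED30032042, and 0.95, 0.36 and 0.14 for the others. The median over all genes was 0.28, and 52.4% of all genes were higher in both 48 h sections, so the lowest of the 5 lay below that median. Sorted cells came from starved animals and the sections from animals fed weekly.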

How the results depend on the processing

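Of 260 values recomputed for 19 results, 206 counted as the same. For a count this meant within 1.5-fold of the main one, and for a median a move of less than the replicate spread. Of the rest, 32 counted as moved, 21 as weaker and 1 as reversed. The members' median 48 h change counted as moved under most settings in both sorts, and stayed below 0. Many of the values that counted as the same are counts of members called, which the choice itself favoured. The counts of members called lower at 48 h, 4 in all, stayed within 1.5-fold in 98 of 98 values. These contrasts entered the choice and no count could exceed 63, so nothing is read from this stability. They ran from 58 to 63 when 1 library was left out. Asking for a 2-fold difference (chosen after seeing the data) left 55 (mmp-1+) and 53 (mmp-1-) against intact animals. The 2 members called at 6 h in mmp-1+ cells became 1 with limma, 1 without a filter on low counts, 1 with the replicate block, and 0 to 2 when 1 library was left out. The 2 in mmp-1- cells became 1 in a fit of the compared groups alone and 1 to 3 when 1 library was left out. With the replicate number as a block, 63 members were called lower in each of the 4 comparisons with 48 h, 1 (mmp-1+) and 2 (mmp-1-) at 6 h, and 0 for the difference between sorts. Deviations of same-numbered libraries correlated at -0.00393 to 0.26 between the sorts of a time, over 0.1 in 2 of 9 pairs and above every other number in 8 of 9, a hint from the data and not from the design, and at -0.18 to 0.091 between times. The labels do not say that same-numbered sorts share a pool, and not every pair was over 0.1, so the numbers were not taken as pairs.

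The median 48 h change was -1.39 (mmp-1+) and -1.30 (mmp-1-) with TMM scaling, -1.57 and -1.40 with a pseudocount of 0.1 CPM, -1.03 and -1.01 with 5 CPM, and ran from -1.47 to -1.26 and from -1.41 to -1.24 when 1 library was left out. The median 6 h change was -0.069 and 0.012 with TMM scaling, and ran from -0.24 to -0.091 and from -0.084 to 0.087 when 1 library was left out. The rule found 45 to 65 genes without 1 library. The section median of -1.02 ran from -1.35 to -1.02 without 1 section. The outer over central median at 48 h turned to 0.12 with the central piece nearest the midpoint of the bead array, was -0.68 with a pseudocount of 5 CPM, and -0.80 to -0.70 in single sections. At 6 h it was 0.049 with that central piece and -0.12 to -0.092 in single sections. The rim median at 6 h was -0.10 with a narrower rim (the outer 25% of beads) and -0.094 to -0.079 in single sections. The cause of these shifts was not tested. With 1 block per time, the sections give no error between animals.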
